A study of Danio rerio with 15 samples.

Results

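The data are the read counts of *mpeg1.1* (ENSDARG00000055290) and *mpeg1.2* (ENSDARG00000043093), the 2 *mpeg1* paralogs of zebrafish that the table listed with reads. They were picked by identifier among 35117 genes and followed in all 15 libraries. Mpeg1, also called perforin-2, is a pore-forming protein with the MACPF fold, the fold of perforin and of the terminal complement proteins. In mammals it is made by macrophages and other phagocytes, where it acts on engulfed bacteria. In zebrafish the *mpeg1* promoter is the standard driver of macrophage reporters, and it is also active in metaphocytes, motile skin cells of ectodermal origin that resemble macrophages.

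Each library holds RNA of *mpeg1*-GFP+ cells sorted from 1 whole juvenile fish, with 3 fish in each of 5 groups. The *csf1rDM* fish at 33 dpf and at 1.5 mpf were homozygous for *csf1ra* j4e1 and *csf1rb* re01, alleles of the paired receptors for Csf1 and Il34. The *il34*-/- fish (re03) were sampled at 1.5 mpf, and wild-type controls at both ages. Every fish, controls included, carried tg(mpeg-GFP), so that cells were chosen in all groups by activity of the promoter of the gene family measured here. Cells without reporter signal were therefore not selected, though the purity of the sort is not given in the sources used here. The levels below are levels within the sorted cells, not numbers of such cells in the fish. In bulk RNA a lower level can come from fewer cells of a type or from less RNA per cell, and these cannot be told apart. The older fish carry 5 months in their sample titles and 1.5 mpf in their stage label, and 1.5 mpf is used.

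Total counts ran from 5488201 to 106374902 per library, a 19.4-fold range, with *csf1rDM* fish 2 at 33 dpf the deepest. Levels are given as CPM, the count relative to the library size after TMM scaling, without correction for gene length. Groups were compared with edgeR's quasi-likelihood test over 17640 genes, and a gene was called at a Benjamini-Hochberg adjusted p under 0.05. The targeted receptor gene *csf1ra* had 0 to 33.9 CPM in the 6 *csf1rDM* fish and 114.7 to 206.2 CPM in the 6 controls. The highest of the *csf1rDM* values was that of fish 2 at 33 dpf, while the other 5 had at most 0.077 CPM. *csf1rb* had 5.47 to 45.4 CPM in *csf1rDM* fish and 113.0 to 405.3 CPM in controls. Both receptor genes are also on the macrophage list used below. In *il34*-/- fish *csf1ra* had 24.6 to 71.0 CPM, also below every control of their age. A low level of these genes therefore does not by itself check the *csf1rDM* label. *il34* was low, with 6.02 to 19.2 CPM in *il34*-/- fish and 11.4 to 22.0 CPM in controls of the same age, and does not check the *il34*-/- label. The third identifier that the symbol table lists as MPEG1 (ENSDARG00000078569) had 0 counts in all 15 libraries, which allows a level of up to 0.0282 to 0.547 CPM depending on depth, for counting error only.

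*mpeg1.1* was taken first, to compare its level between groups. Cells were chosen by the *mpeg1* reporter in every group, so the presence of *mpeg1.1* in them is no result. *mpeg1.1* was abundant in every library, and its level was about 2 times as high in *csf1rDM* as in control fish. At 33 dpf the *csf1rDM* fish had 8571, 6015 and 7471 CPM and the controls 3235, 3890 and 2357 CPM. At 1.5 mpf the *csf1rDM* fish had 7194, 7920 and 4174 CPM and the controls 3450, 3788 and 3248 CPM. At both ages the lowest *csf1rDM* fish lay above the highest control, by a wide gap at 33 dpf and by a narrow gap at 1.5 mpf, where *csf1rDM* fish 3 sat near the controls. Such an order at both ages was found in 3.78% of all genes tested. As shares of all counts, *mpeg1.1* took 0.402 to 0.840% in the *csf1rDM* fish and 0.260 to 0.428% in the controls, and these ranges overlap only across the ages.

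**Figure D1:**
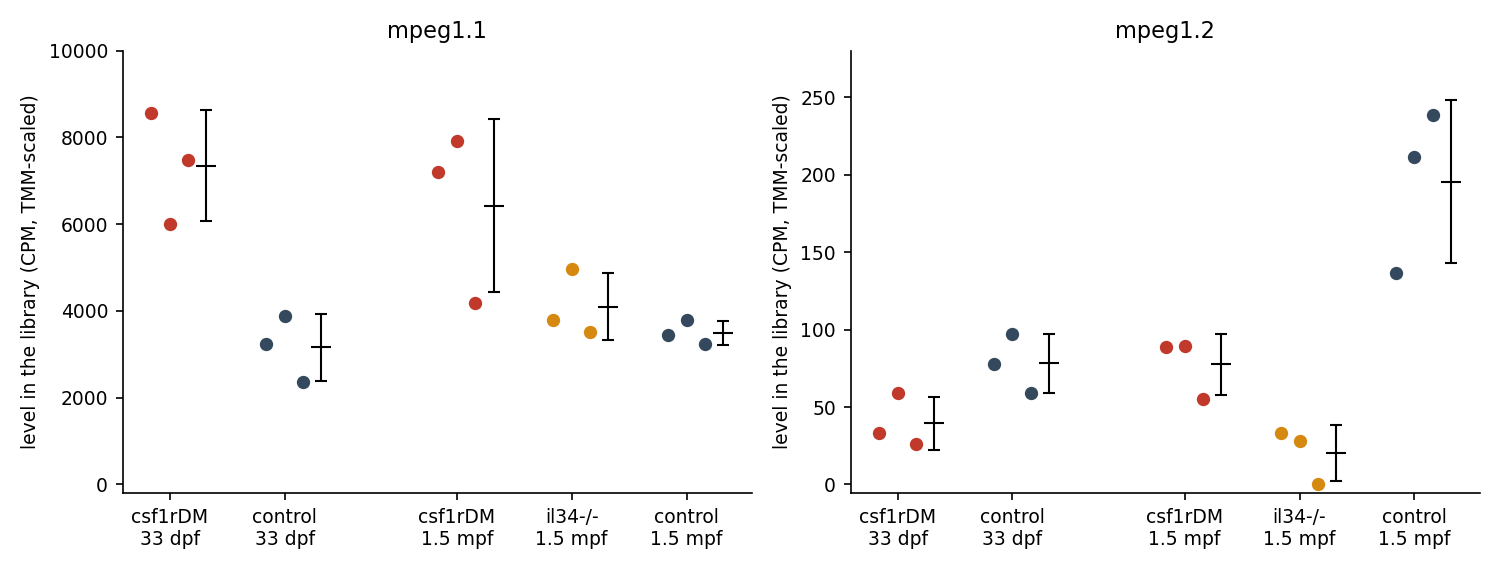
Level of mpeg1.1 (left) and mpeg1.2 (right) in each fish, in CPM on linear axes with different ranges. Points are single fish in the order of their replicate numbers, and black bars are the mean ± SD of 3 fish. The csf1rDM points lie above the controls of their age for mpeg1.1 and below them for mpeg1.2, and 1 il34-/- fish lies at 0 for mpeg1.2.

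Averaged over both ages, the difference in *mpeg1.1* was 1.05 on the log2 scale (SE 0.17), a 2.07-fold higher level in *csf1rDM* fish with a 95% interval of 1.61 to 2.66. It was called with an adjusted p of 0.00225 in edgeR, where 5.87% of all genes tested were called, 2.7% higher and 3.17% lower. At 33 dpf alone the difference was 1.22 (SE 0.24, edgeR adjusted p = 0.0145), among 3.05% of genes called. At 1.5 mpf it was 0.88 (SE 0.24), with an edgeR adjusted p of 0.0971 that missed the threshold, among 1.63% of genes called. The difference between these age-specific effects was -0.34 (95% interval -1.05 to 0.38, edgeR adjusted p = 0.880), so no change of the effect with age was detected.

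The call over both ages held in every alternative fit with edgeR or DESeq2, with values between 0.91 and 1.18 on the log2 scale. The calls within 1 age did not. At 33 dpf the adjusted p became 0.0596 in an edgeR fit of only those 6 fish (1.04% of genes called), and 0.0511 to 0.0927 without *csf1rDM* fish 1, control 1 or control 3. At 1.5 mpf the gene was called by DESeq2 (adjusted p = 0.00607, with 8.61% of genes called) and by edgeR without *csf1rDM* fish 3, where the difference was 1.15 (adjusted p = 0.0199, with 0.742% of genes called).

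Being called was common among abundant genes. Of the 75 genes that averaged at least 1000 CPM over all fish, 17 were higher and 17 lower in *csf1rDM* fish over both ages, 45.3% in all. In that set 8 genes had a larger log2 fold change than *mpeg1.1* and 15 a smaller p-value. The spread of *mpeg1.1* between fish of a group was small for a gene of these libraries, with a within-group SD of 0.33 on the log2 scale, and 5.09% of all genes had a smaller one. Among the 75 abundant genes, however, 76.0% had a smaller within-group SD.

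In *il34*-/- fish, which lack a ligand of the receptor but not the receptor, *mpeg1.1* lay close to the control level. The *il34*-/- fish had 3801, 4978 and 3525 CPM, against 3450, 3788 and 3248 CPM in the controls of the same age. The ranges overlapped, and fish 2 was the highest of both groups. The difference was 0.23 on the log2 scale with a 95% interval of -0.27 to 0.74 (edgeR adjusted p = 0.860, with 0.686% of genes called), against a median of -0.12 over all genes. The interval reaches from a slightly lower level to one 1.67 times as high, and so does not show that the groups were alike.

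Set directly against the *il34*-/- fish, the *csf1rDM* fish at 1.5 mpf were higher in *mpeg1.1* by 0.65 on the log2 scale (95% interval 0.14 to 1.16). The edgeR adjusted p was 0.217, with 1.82% of genes called, while DESeq2 called the gene (0.68, adjusted p = 0.0446, with 11.2% of genes called). *csf1rDM* fish 3, at 4174 CPM, lay below *il34*-/- fish 2, at 4978 CPM, and without it the edgeR difference was 0.88 (adjusted p = 0.0727). With age *mpeg1.1* differed little. The later minus the earlier age was 0.15 in controls (edgeR adjusted p = 1, with 1.17% of genes called) and -0.19 in *csf1rDM* fish (edgeR adjusted p = 0.987, with 0.215% of genes called), and both signs turned in single alternatives.

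By group means the order of *mpeg1.1* was *csf1rDM* at 33 dpf (7352 ± 1282 CPM), *csf1rDM* at 1.5 mpf (6430 ± 1987), *il34*-/- (4102 ± 772), control at 1.5 mpf (3495 ± 273) and control at 33 dpf (3161 ± 769; SD, n = 3 each). Each group overlapped its neighbour in this order.

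*mpeg1.2* had reads in 14 of 15 libraries, and its levels were ordered the other way, lower in *csf1rDM* than in control fish. At 33 dpf the *csf1rDM* fish had 33.3, 58.9 and 26.0 CPM and the controls 78.1, 96.9 and 59.3 CPM. At 1.5 mpf the *csf1rDM* fish had 88.5, 89.6 and 55.0 CPM and the controls 136.7, 211.2 and 238.4 CPM. At each age all *csf1rDM* fish lay below all controls, though at 33 dpf *csf1rDM* fish 2 and control 3 were nearly level. An order of this kind at both ages was found in 3.8% of all genes tested.

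The fitted difference in *mpeg1.2* over both ages was -1.16 on the log2 scale (SE 0.72, 95% interval -2.71 to 0.39), and was not called by edgeR (adjusted p = 0.405). It was -0.99 at 33 dpf (edgeR adjusted p = 0.761) and -1.33 at 1.5 mpf (edgeR adjusted p = 0.679). This fit shares its estimate of spread with the *il34*-/- fish, of which 1 had no *mpeg1.2* read. With only *csf1rDM* and control fish in the fit the difference was much the same, -1.20, but its SE was 0.26 and the gene was called (edgeR adjusted p = 0.0212, with 5.94% of genes called). An exact permutation test of log2 CPM within age, added after the data were seen, gave a difference of -1.18 with p = 0.005, not adjusted over genes. That is the smallest p that 400 arrangements allow, and the order without overlap at both ages already fixed it. Relative to the mean of the 4 leukocyte genes *spi1a*, LCP1, CORO1A and *ptprc*, the same test gave -1.19 for *mpeg1.2* and 1.03 for *mpeg1.1*, each with exact p = 0.005. These 4 genes were chosen after their values were seen and differed little between the genotypes. Scaling to them could therefore change little, and it is no separate support.

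**Figure D2:**
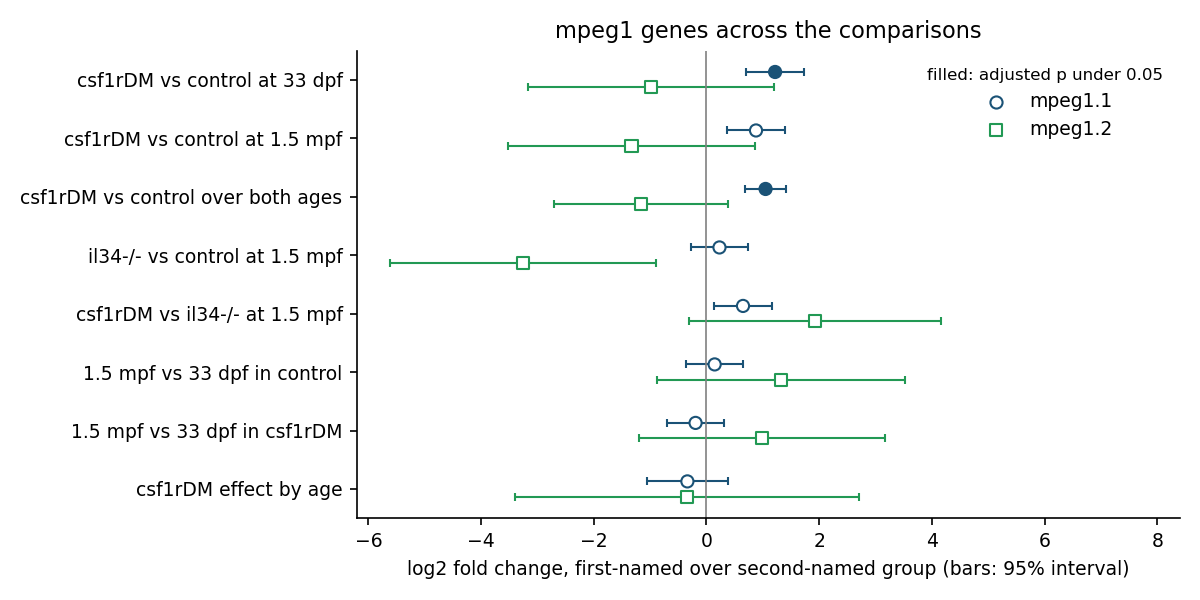
Log2 fold change of mpeg1.1 (circles) and mpeg1.2 (squares) in each comparison of the edgeR fit, first-named group over second-named group, with 95% intervals. The last line is the 1.5 mpf effect minus the 33 dpf effect. Filled symbols mark an adjusted p under 0.05, reached by mpeg1.1 at 33 dpf (1.22) and over both ages (1.05), while the intervals of mpeg1.2 are several times as wide.

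By group mean *mpeg1.2* was lowest in *il34*-/- fish, though their values overlapped those of *csf1rDM* fish at 33 dpf. The *il34*-/- fish had 33.0, 28.2 and 0 CPM, against 136.7, 211.2 and 238.4 CPM in controls of the same age. Every *il34*-/- fish was far below every control, an order found for 10.6% of all genes tested in this comparison. In counts these were 252, 765 and 0 reads in the *il34*-/- fish. Fish 3, with 0 of 8854500 counts (up to 0.339 CPM allowed by counting error), had 32804 reads of *mpeg1.1*.

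The difference between *il34*-/- fish and controls was -3.26 for *mpeg1.2* (SE 1.09, 95% interval -5.62 to -0.90), with an edgeR adjusted p of 0.248. Without *il34*-/- fish 3 the difference shrank to -2.62 but was called (edgeR adjusted p = 0.0497, with 0.213% of genes called), and DESeq2 called it with all fish (-3.34, adjusted p = 0.0142, with 6.91% of genes called). Complete absence of a gene that was well covered elsewhere was rare but not confined to this library. Of 2518 genes with at least 252 counts in each of the other 14 fish, 4 had 0 counts in *il34*-/- fish 3. The cut-off of 252 equals the lowest *mpeg1.2* count among fish with reads, so *mpeg1.2* itself is among the 4. By the same rule 7 of 2512 genes had 0 counts in *csf1rDM* fish 1 at 33 dpf, 1 of 2538 in control 3 at 1.5 mpf, and 0 in the other 12 libraries.

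The *csf1rDM* fish at 1.5 mpf lay above the *il34*-/- fish in *mpeg1.2*, with 88.5, 89.6 and 55.0 CPM against 33.0, 28.2 and 0 CPM. The groups did not overlap, as for 11.2% of all genes in that direction. The difference of 1.93 (95% interval -0.31 to 4.17) was not called by edgeR (adjusted p = 0.397), and was 1.27 without *il34*-/- fish 3. *mpeg1.2* was higher at 1.5 mpf than at 33 dpf in controls, without overlap between the ages (9.74% of genes in that direction), by 1.32 on the log2 scale (edgeR adjusted p = 0.859). In *csf1rDM* fish the difference of 0.98 was not called (edgeR adjusted p = 0.937), and the ages overlapped through fish 2 at 33 dpf (58.9 CPM) and fish 3 at 1.5 mpf (55.0 CPM).

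By group means the order of *mpeg1.2* was control at 1.5 mpf (195.4 ± 52.7 CPM), control at 33 dpf (78.1 ± 18.8), *csf1rDM* at 1.5 mpf (77.7 ± 19.7), *csf1rDM* at 33 dpf (39.4 ± 17.3) and *il34*-/- (20.4 ± 17.8; SD, n = 3 each). Only the top group was clear of the group that follows it. The spread of *mpeg1.2* was wide in the common fit, with a biological coefficient of variation of 83.7%, compared with 25.8% for *mpeg1.1*.

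The balance between the paralogs can be read within each library, where depth and scaling cancel. It was taken as *mpeg1.2* counts per 100 *mpeg1.1* counts. As the genes may differ in length, the value is meaningful only as a change between fish. At 33 dpf it was 0.388, 0.979 and 0.347 in *csf1rDM* fish and 2.41, 2.49 and 2.52 in controls. At 1.5 mpf it was 1.23, 1.13 and 1.32 in *csf1rDM* fish, 0.867, 0.566 and 0 in *il34*-/- fish, and 3.96, 5.58 and 7.34 in controls. None of the 5 groups overlapped another group of its age. The controls at 33 dpf were tightly grouped, at 2.47 ± 0.0540, and those at 1.5 mpf were more spread, at 5.63 ± 1.69 (SD, n = 3 each).

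**Figure D3:**
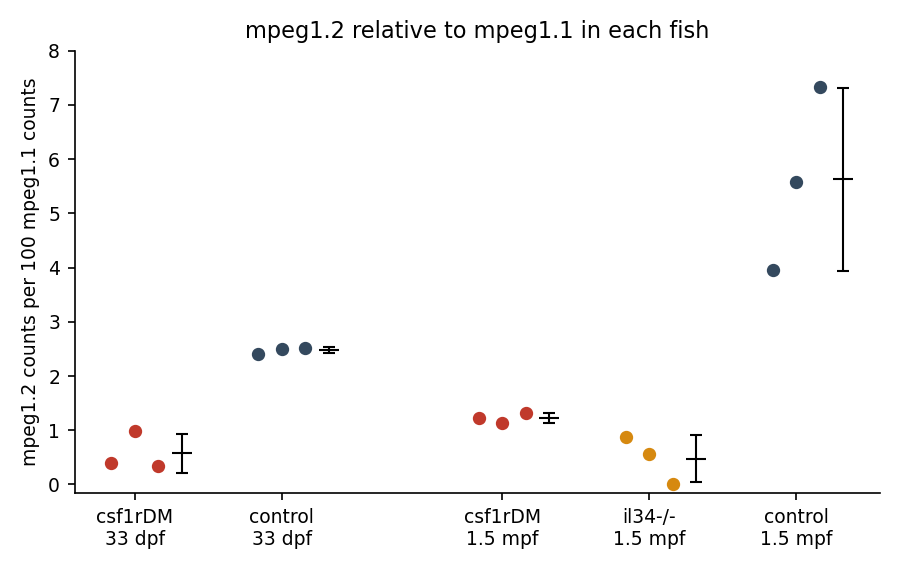
mpeg1.2 counts per 100 mpeg1.1 counts in each fish on a linear axis from 0. Points are single fish in the order of their replicate numbers and black bars the mean ± SD of 3 fish. The 6 controls lie at 2.41 or more, and the 6 csf1rDM and 3 il34-/- fish lie at 1.32 or less.

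Over both ages the ratio was 4.65 times lower in *csf1rDM* than in control fish, a difference of -2.22 on the log2 scale (exact permutation within age, two-sided p = 0.005, 0.035 after Benjamini-Hochberg adjustment over 7 comparisons). It was lower in 6 of 6 *csf1rDM* fish than in any control. The differences were close at the 2 ages, -2.28 at 33 dpf and -2.15 at 1.5 mpf, each with an exact permutation p of 0.1, below which groups of 3 cannot go. Both genes enter this shift, *mpeg1.1* with a higher and *mpeg1.2* with a lower level in every *csf1rDM* fish than in the controls of its age. These orders without overlap already fixed the exact permutation p of the ratio at 0.005, the smallest that 400 arrangements allow. The test of the ratio is therefore no separate support.

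Between *il34*-/- fish and controls the ratio differed by -5.57 on the log2 scale, a value that rests on the fish without reads. It was -5.05 with that count set to 3 (an alternative added after the data were seen), -4.79 with 5 counts in place of 1 added to every value, and -2.96 without that fish. The exact p with all fish was 0.1, and 0.1 after adjustment. The *csf1rDM* fish were above the *il34*-/- fish by 3.42, and by 0.80 without *il34*-/- fish 3. With age the ratio was higher at 1.5 mpf than at 33 dpf in both genotypes, by 1.26 in *csf1rDM* fish and by 1.14 in controls, without overlap in either (exact p = 0.1 each, adjusted p = 0.1).

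*csf1rDM* fish 2 at 33 dpf stood out among its group in this ratio, at 0.979 against 0.388 and 0.347. It was also the only *csf1rDM* fish with *csf1ra* above 0.077 CPM. Of the 20 macrophage and engulfment genes of the marker lists, 6 had their highest *csf1rDM* level in this fish and 2 their lowest. Each other *csf1rDM* fish held the highest level of 1 to 4 of these genes and the lowest of 0 to 8. The 6 included *csf1ra*, already given above, and *c1qb* (122.4 CPM, against at most 30.1 in the other *csf1rDM* fish). They also included *c1qc* (76.2, at most 33.4) and *marco* (74.5, at most 30.0). The 2 at their lowest were *apoeb* (180.1 CPM) and CEBPA (15.5). Some genes of other lists, such as *ighm*, *cd22* and *krt92*, also had their highest *csf1rDM* level in this fish, while others, such as *krt4*, did not. High values in this fish were thus not particular to the macrophage list. *csf1rb* was also low in this fish, at 5.75 CPM in a range of 5.47 to 45.4 CPM over the *csf1rDM* fish. This fish also gave the deepest library, and the part of depth was not tested. The sum of the 20 genes was 7624 CPM in this fish, and 6745 to 8260 CPM over the 6 *csf1rDM* fish with this one included. That sum is weighted to abundant genes such as CORO1A (1961 CPM), so it cannot show such differences. Without this fish the ratio over both ages differed by -2.45 (exact p = 0.005) and *mpeg1.2* by -1.41 (edgeR adjusted p = 0.348).

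Across all 15 fish the log2 levels of the paralogs did not follow each other, with Pearson's r of 0.02 and Spearman's rho of -0.31. Without *il34*-/- fish 3, r was -0.40 over 14 fish. These are descriptions, since the fish share groups.

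The genes whose log2 levels over the 15 fish were most like *mpeg1.1* were ZNF366 (r = 0.94), WIPF1 (0.94), SPOCK3 (0.93), AFAP1L2 (0.93) and SBF1 (0.93), named by the symbol table in capitals. WIPF1 is a partner of the actin regulator WASP, and ZNF366, also known as DC-SCRIPT, is a transcription factor of mammalian dendritic cells. ZNF366 had 670.9 to 1182 CPM in *csf1rDM* fish and 189.6 to 341.2 CPM in controls at 33 dpf. All 5 were called higher in *csf1rDM* fish over both ages, as were 2.7% of all genes tested, by 1.05 (WIPF1) to 1.49 (ZNF366) on the log2 scale. None was called between *il34*-/- fish and controls, where 0.686% of all genes were. As these genes were picked by their likeness to *mpeg1.1* over the same fish, such differences follow from the choice and are no separate support. Leaving out *il34*-/- fish 3 kept r between 0.93 and 0.95.

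The genes most like *mpeg1.2* were PLXDC2 (r = 0.96), si:zfos-979f1.2 (0.96), si:dkey-250k10.4 (0.96), SIDT2 (0.95) and YY1 (0.95). This likeness rested on *il34*-/- fish 3, in which the first 4 had 0 counts and YY1, a transcription factor found in most cells, had 1 count. Without that fish r was 0.67, 0.71, 0.84, 0.61 and 0.54 in the same order. None of the 5 was called in *csf1rDM* fish over both ages or in *il34*-/- fish, where 5.87% and 0.686% of all genes were, so this says little about them.

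Whether the *mpeg1* genes moved with other genes of the cells in the sort was described with lists of markers. Over all genes tested, 2.7% were called higher and 3.17% lower in *csf1rDM* fish over both ages, the share against which each list below stands. Of 20 macrophage and engulfment genes tested, 13 were called lower and 2 higher, with a median of -3.84 on the log2 scale, against -0.05 over all genes. Their summed level was 6745 to 8260 CPM in *csf1rDM* fish, 12101 to 13554 CPM in *il34*-/- fish and 9285 to 19089 CPM in controls. CEBPA, a myeloid transcription factor, differed by -3.78, CEBPB by -2.49 and the chemerin receptor CMKLR1 by -3.90 (edgeR adjusted p at most 1.52e-05). *stab1*, a scavenger receptor of macrophages and endothelium, had at most 0.0978 CPM in *csf1rDM* fish, and 63.2 to 235.3 CPM in controls. These 4 genes were named because they had the smallest adjusted p of the list. *mpeg1.1* differed in sign from these 4 genes, and *mpeg1.2* shared their sign with a smaller difference. The 2 genes of the list called higher, *itgb7* (0.70, edgeR adjusted p = 0.0488) and LCP1 (0.32), shared the sign of *mpeg1.1*.

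Genes found in most leukocytes differed little. *spi1a*, encoding the Pu.1 transcription factor of myeloid cells, differed by 0.12, CORO1A by -0.17 and *ptprc*, encoding CD45, by -0.25 over both ages, and none of these was called. LCP1, encoding L-plastin, was called higher by 0.32 (edgeR adjusted p = 0.0360). The difference of 1.05 in *mpeg1.1* was larger than each of these.

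**Figure D4:**
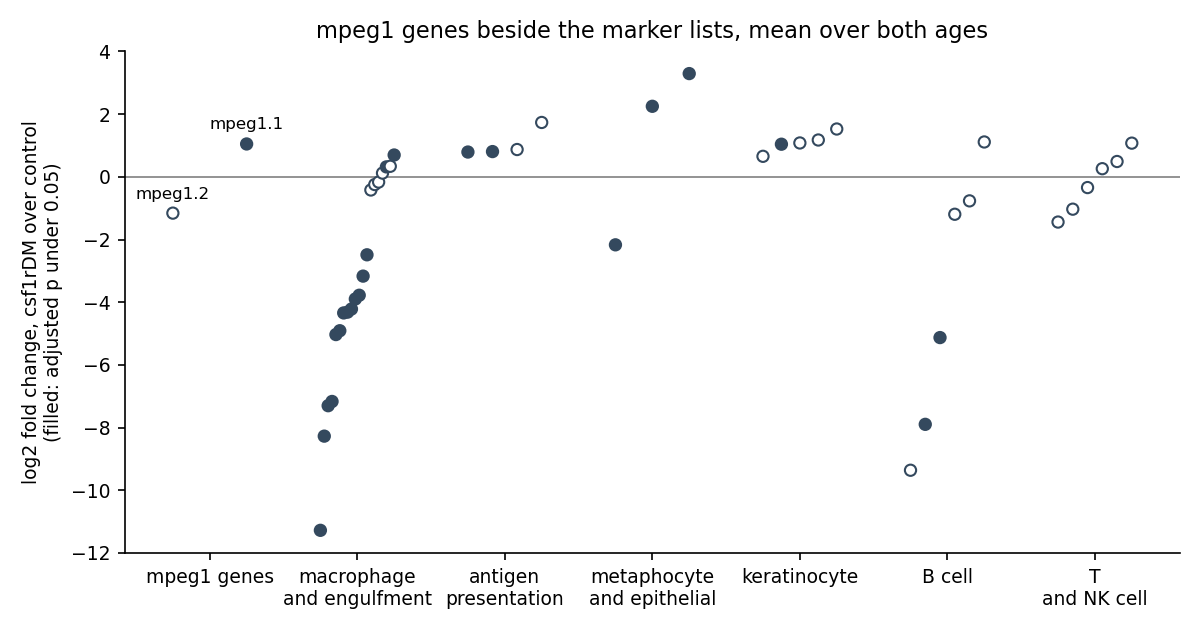
Log2 fold change of the mpeg1 genes and of the tested genes of 6 marker lists, csf1rDM over control over both ages, with 1 point per gene sorted by value within its list. Filled points have an adjusted p under 0.05. mpeg1.1 (1.05) lies beside the antigen presentation and keratinocyte genes and mpeg1.2 (-1.16) between these and most macrophage genes, and the lowest points belong to genes near 0 in csf1rDM fish, whose fold depends on the depth.

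Of 3 tested genes that mark metaphocytes and epithelium, *cdh1* (E-cadherin) was called higher by 3.29 and *epcam* by 2.25 on the log2 scale, and *cd4-1* was called lower (-2.17). Their summed level was 651 to 1164 CPM in *csf1rDM* fish, 141 to 259 CPM in *il34*-/- fish and 155 to 474 CPM in controls. Of 4 antigen presentation genes 2 were called higher over both ages, the invariant chains *cd74a* (0.81) and *cd74b* (0.79), and none lower. These differences lay mostly at 33 dpf, with 1.45 for *cd74a* and 1.29 for *cd74b*. At 1.5 mpf they were 0.16 and 0.29 (edgeR adjusted p = 0.873 and 0.635), and none of the 4 genes was called. Of 5 keratinocyte genes 1, *krt4*, was called higher (1.04, edgeR adjusted p = 0.0181). The summed level of the 5 keratinocyte genes was 1146 to 1917 CPM in *csf1rDM* fish of both ages, 312 to 657 CPM in *il34*-/- fish and 538 to 1132 CPM in controls, and the part of either sum in the *mpeg1.1* difference was not tested.

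Lymphoid cells can carry *mpeg1* in fish, and B cell genes were present at low level. Their summed level of 6 genes was 8.32 to 405.8 CPM in *csf1rDM* fish, 91.4 to 137.8 CPM in *il34*-/- fish and 75.5 to 286.9 CPM in controls. Of these 6 genes *cd22* and *cd37* were called lower in *csf1rDM* fish over both ages and none higher. Within 1 age *cd37* was called only at 33 dpf and *cd22* only at 1.5 mpf. *ighm* went the other way (1.11) and was not called. It had 0.231 to 366.7 CPM in *csf1rDM* fish and made up most of their highest sum. PAX5 was at 0 in every *csf1rDM* and *il34*-/- fish, but also in control 1 at 33 dpf and control 3 at 1.5 mpf. In the other controls it had 1.56 to 19.9 CPM, and it was not called in *csf1rDM* fish (edgeR adjusted p = 0.0889). None of 6 T and NK cell genes was called, which says little about so short a list where 5.87% of all genes were called. Of 3 neutrophil genes *srgn*, a granule proteoglycan, was called lower (-1.14, edgeR adjusted p = 0.0228). *npsn* (1.03) and *lyz* (0.75) went the other way and were not called, so the list had no common direction. Of 2 erythrocyte genes *hbaa1* was called lower (-2.93, edgeR adjusted p = 0.0126).

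Other genes of the MACPF fold were low in these cells. Apart from *mpeg1.1* and *mpeg1.2*, 7 passed the filter on low counts, with a summed level of 28.8 to 95.6 CPM in *csf1rDM* fish, 24.6 to 93.4 CPM in *il34*-/- fish and 27.0 to 197.8 CPM in controls. Of these, 1 was called in *csf1rDM* fish over both ages, *c7b*, a gene of complement component C7, which had at most 0.135 CPM in *csf1rDM* fish and 15.9 to 130.5 CPM in controls. With 5.87% of all genes called, 1 of 7 says little about the family.

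The genes named *mpeg1.1* and *mpeg1.2* lie on chromosome 8 in the RefSeq gene table of the GRCz12tu assembly, which was used for names and neighbours only. None of the 3 measured genes among its nearest 4 coding neighbours was called higher with *mpeg1.1*. *tspan36*, a tetraspanin gene, was called lower in *csf1rDM* fish (-1.40 on the log2 scale, edgeR adjusted p = 9.28e-04), with 126.1 to 219.1 CPM, against 280.6 to 622.3 CPM in controls. *prf1.5*, a perforin gene next to *mpeg1.1*, ranged from 0 to 31.8 CPM and was not called. Next to *mpeg1.2*, *rgl1*, a Ral exchange factor gene, had 0 to 14.4 CPM in *csf1rDM* fish, 34.4 to 38.2 CPM in *il34*-/- fish and 46.0 to 201.4 CPM in controls, and was called lower in *csf1rDM* fish (edgeR adjusted p = 0.00513). The highest *csf1rDM* value of *rgl1* was again that of fish 2 at 33 dpf. Of the other near coding neighbours of *mpeg1.2*, *plin3* differed by -0.51 on the log2 scale over both ages (edgeR adjusted p = 0.546). *zgc:92140* differed by 0.77 (edgeR adjusted p = 0.730), so neither was called, and *colgalt2b* did not pass the filter on low counts.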

How the data were processed

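The authors sorted *mpeg1*-GFP+ cells with myeloid scatter from single dissociated fish, amplified the cDNA with a SMART-seq V4 kit for low RNA input and sequenced paired reads of 75 bp. Reads were mapped with STAR to GRCz10. The submitters' processing notes also name CASAVA 1.8, cutadapt, STAR 2.5.4b, Cufflinks 2.2.1, HTSeq 0.11.0 and edgeR, without saying which made the table. The deposited values are raw counts per Ensembl gene without normalization, and how reads shared by *mpeg1* paralogs were treated is not given in the sources used here. Amplified reads are not independent molecules, so floors of 3 counts cover counting error only. Each replicate is a separate fish.

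The tests ran in edgeR 4.0.16 under R 4.3.3 (filterByExpr over 5 groups, TMM, robust glmQLFit on all 15 libraries with a coefficient per group, glmQLFTest, Benjamini-Hochberg over 17640 genes). Paralog ratios used log2 of counts plus 1 and exact permutation tests. Alternatives were RLE, upper-quartile or no scaling factors, DESeq2 1.42.0, no filter or CPM over 1 in 3 libraries, no robust estimation, thinned counts, only the groups compared, a replicate block, 0 or 5 counts added to the ratio, and leaving out each fish. Added after the data were seen were the permutation test of log2 CPM, scaling to 4 leukocyte genes and a floor of 3 for a count of 0. The test was tried on simulated data.

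The members and lists were chosen with earlier results of these data known. Named besides the members were the 5 genes most correlated with each (log2 CPM, prior count 2) and, per list, up to 4 genes with the smallest adjusted p in *csf1rDM* against control fish over both ages, of which those called are given. Chosen after their values were seen were the leukocyte genes, *csf1ra*, *csf1rb*, *il34*, PAX5, *itgb7*, *apoeb*, *c1qb*, *c1qc*, *marco* and the neighbouring genes. The same holds for *ighm*, *krt92*, *npsn* and *lyz*. Symbols came from a table that matched 27000 of 35117 identifiers. Figures were drawn with matplotlib 3.10.9.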

Additional observations from a re-analysis of the deposited data

How the results depend on the processing

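Of 365 alternative values of 23 results, 345 kept their direction and their side of the threshold, among them all for *mpeg1.1* over both ages. The 345 include ratio comparisons of 3 against 3 fish, whose exact p cannot go below 0.1. Those could not have changed side, so the count is no measure of robustness. For *mpeg1.1* between *csf1rDM* and control fish, the 33 dpf difference was 1.22 but no longer called with only the groups compared, and ranged from 0.98 to 1.40 on leaving out 1 fish. At 1.5 mpf DESeq2 called it at 0.87, and the range was 0.67 to 1.15. DESeq2 also called *csf1rDM* over *il34*-/- fish at 0.68. *mpeg1.2* over both ages was called with only the groups compared (-1.20). By exact permutation (-1.18) and relative to leukocyte genes (-1.19) it had an exact permutation p of 0.005. That p was not adjusted over genes, so neither is a call, and these alternatives were sorted by the unadjusted p. Between *il34*-/- fish and controls *mpeg1.2* was called by DESeq2 (-3.34) and ranged from -3.76 to -2.62 on leaving out 1 fish. The ratio over both ages ranged from -2.45 to -2.08 on leaving out 1 fish. Its adjusted exact permutation p was 0.07 when that fish was a 33 dpf control, and 0.035 otherwise. The age difference of *mpeg1.1* in controls turned to -0.091 with library size only, a scaling that moved the median of all genes by -0.22, and ranged from -0.071 to 0.32 on leaving out 1 fish. In *csf1rDM* fish it ranged from -0.38 to 0.024, and the effect by age of *mpeg1.2* from -0.55 to 0.12. The cause of these changes was not tested. Adding 0 counts gave no ratio for *il34*-/- fish.

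Same-numbered fish did not deviate together (correlations between -0.02 and 0.077), so the numbers do not pair them. With a replicate block *mpeg1.1* over both ages was 1.04 (edgeR adjusted p = 0.00595). The ratio, by sign flips within pairs, was -2.22 with an exact p of 0.0313, adjusted 0.219. That is the smallest p that sign flips of so few pairs allow. No outcome could have kept the call of the ratio, and its loss says nothing about pairing. The block changed no other call.

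With 3 fish a group, an exact test cannot go below 0.1. Floors of 0.0282 to 0.547 CPM limit what a count of 0 shows.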
